A study of Mus musculus with 17 samples.

Results

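Mitochondrial ribosomal protein genes were taken as the probe sets whose single gene symbol in the array annotation began with Mrpl or Mrps followed by a digit, with the brightest probe set standing for each gene. This gave 76 genes of the 14245 analysed, 47 named for the large ribosomal subunit (Mrpl) and 29 for the small subunit (Mrps). They are covered by 156 probe sets, 34 genes by 1 and 42 by several. The rule itself reads names and brightness, not differences between groups. All 76 genes passed the filter on dim probe sets. Their probe sets lay between the 67.1th and the 96.7th percentile of array brightness, with a median of 87.4.

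Total RNA of sorted mouse bone marrow was measured on 17 arrays in 5 groups. Batch 1 held GPI-negative and GPI-positive cells of Pig-a knock-out mice (3 arrays each). Batch 2 held GPI-negative cells from C57BL/6 mice transplanted with knock-out marrow (4 arrays, the knock-out graft), GPI-positive cells from C57BL/6 mice transplanted with wild-type marrow (3 arrays, the wild-type graft), and GPI-positive cells of untransplanted wild-type C57BL/6 mice (4 arrays). GPI is the glycolipid anchor whose first step needs Piga, and cells were sorted by antibodies to the GPI-linked markers CD24, CD48 and Gr-1. Knock-out marrow was exposed to 10 nM aerolysin, a toxin that kills GPI-positive cells, for 30 minutes before transfer into mice irradiated with 9 Gy. The labels do not give these treatments for the wild-type graft, so GPI status, donor genotype and graft treatment cannot be told apart between the recipients. Both sorted fractions of batch 1 come from knock-out mice. The sources used here do not give the allele, the promoter driving the deletion, or the age and sex of the mice. Replicates are called biological, but no animals are named, and the p-values therefore reflect array-to-array spread, which may be technical.

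Mitochondrial ribosomes translate the few proteins encoded by mitochondrial DNA, which are core subunits of the respiratory chain complexes and of ATP synthase. Their RNA comes from the mitochondrial genome, whereas every one of their proteins is encoded in the nucleus, made in the cytosol and imported. Some of the proteins have bacterial counterparts, and others were added in the mitochondrial lineage. In marrow, mitochondrial protein synthesis serves dividing precursors and the haem-making erythroid cells among others.

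Piga checked the sort labels: its log2 value was 1.74 ± 0.15 (SD, n = 3) in knock-out GPI-negative and 3.78 ± 0.29 (n = 3) in knock-out GPI-positive cells, then 0.51 ± 0.30 (n = 4) in the knock-out graft, 4.13 ± 0.11 (n = 3) in the wild-type graft and 4.20 ± 0.10 (n = 4) in wild type. The 11 markers of neutrophils and their precursors, the main marrow population, were bright in all groups, with sums (linear scale) of 16110 to 17130 in knock-out GPI-negative and 20780 to 21090 in knock-out GPI-positive arrays. Of these markers, Elane (log2 difference -1.90) and Mpo (-1.48) fell most in knock-out GPI-negative cells, and none was called higher. In the knock-out graft against the wild-type graft the same genes differed by -1.06 and -0.70. Cell makeup differed along with GPI status. The 13 measured T and NK cell markers summed (linear scale) to 946.4 to 1051 in knock-out GPI-negative arrays and 64.75 to 66.33 in GPI-positive ones. Their sums were 215.2 to 518.7 in the knock-out graft, 65.04 to 79.38 in the wild-type graft and 74.58 to 108.4 in wild type. Knock-out GPI-negative sums also exceeded GPI-positive ones for B cells (496.2 to 638.6 against 269.4 to 280.4) and plasmacytoid dendritic cells (302.8 to 339.9 against 126.3 to 135.6). They were lower for plasma cells (168 to 274.5 against 751.4 to 938.7) and for eosinophils and basophils (62.47 to 78.45 against 193.2 to 202.5). Sums of erythroid and of stem and progenitor markers overlapped. Of the macrophage markers, C1qa and C1qc stayed below the 40th percentile on every array of both GPI-negative groups. Array quality measures also moved with the sort in batch 1: spiked-in hybridisation controls averaged a log2 value of 8.80 ± 0.32 on GPI-negative arrays, compared with 6.98 ± 0.23 on GPI-positive arrays, and the 3′ minus 5′ signal of Gapdh was -0.16 ± 0.13 and -1.02 ± 0.02 (n = 3 each). The deposited value of these controls rose by 0.956 ± 0.0747 per log10 of concentration on the GPI-negative arrays and by 1.15 ± 0.01 on the GPI-positive ones. The part of cell makeup and of array quality in the differences reported here was not tested. In bulk RNA, fewer cells of a type and less RNA per cell cannot be told apart.

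Among knock-out cells, more mitochondrial ribosomal protein genes were higher than lower in the GPI-negative fraction. Of 76 genes, 16 rose and 2 fell (limma, Benjamini-Hochberg adjusted p under 0.05 over all 14245 genes), and 58 did not pass the test. The 18 called are 23.7% of the genes, against 29.5% of all genes called in this comparison, so as a share the group was not richer in changes than the array as a whole. Over all genes, rises and falls were equally common, at 14.8% each. The median log2 difference over the 76 genes was 0.11, beside -0.01 over all genes. Split by name alone, 7 of 29 Mrps genes rose and none fell, and 9 of 47 Mrpl genes rose and 2 fell.

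**Figure D1:**
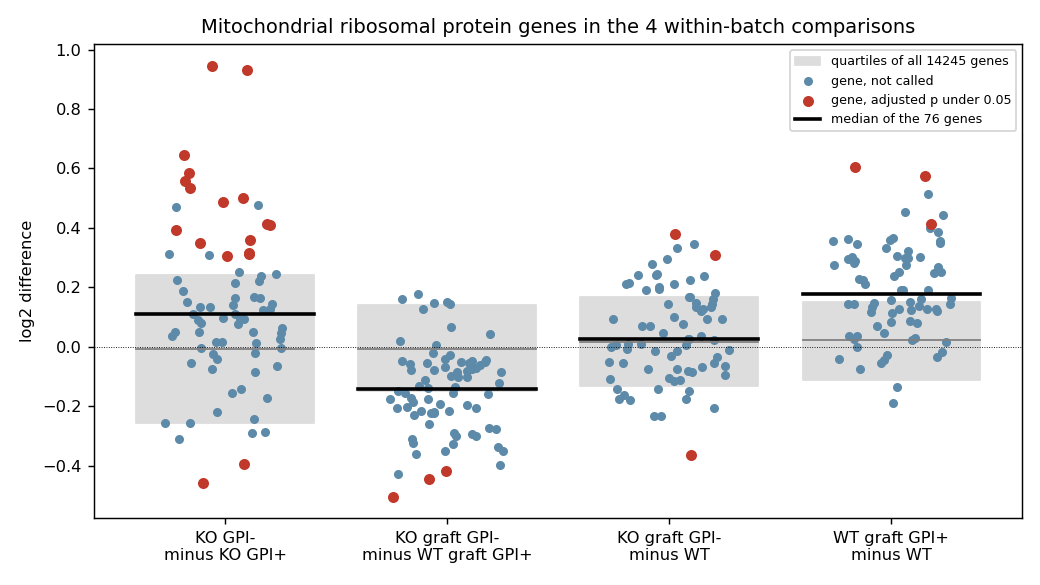
Log2 difference of each of the 76 genes (points) in the 4 comparisons made within a batch, with red points past an adjusted p of 0.05, a black line at the median of the 76, and grey bars spanning the quartiles of all 14245 genes. The red points sit mostly above 0 in the first comparison (16 of 18), and the medians run 0.11, -0.14, 0.03 and 0.18 from left to right.

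The 2 largest rises were in Mrps6 and Mrpl52. Mrps6 encodes the counterpart of the bacterial small-subunit protein S6. Its log2 values were 3.63, 3.06 and 3.19 in GPI-negative arrays and 2.38, 2.26 and 2.40 in GPI-positive ones. The groups did not overlap, and the difference was 0.95 ± 0.15 (SE), 1.93-fold, with a limma adjusted p of 3.95e-05. Mrpl52 encodes a large-subunit protein without a bacterial counterpart. It measured 5.30, 5.22 and 5.27 against 4.34, 4.29 and 4.37. Its replicates were closer together than those of Mrps6, and it rose by 0.93 ± 0.14 (1.91-fold, limma adjusted p = 2.56e-05). A second probe set of Mrps6 gave 0.69 ± 0.14, and 3 other probe sets of Mrpl52 gave 0.70, 0.59 and 0.09.

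Mrpl12, a large-subunit stalk protein that also binds the mitochondrial RNA polymerase, measured 5.19, 5.45 and 5.22 in GPI-negative and 4.73, 4.57 and 4.63 in GPI-positive arrays. The rise was 0.64 ± 0.14 (limma adjusted p = 0.00112). Mrps26, a small-subunit protein particular to mitochondria, rose by 0.56 ± 0.13 from values of 4.0, 3.67 and 3.87 to 4.28, 4.58 and 4.36. Mrps24 rose by 0.53 ± 0.14 and Mrps7, a protein of the small-subunit head, by 0.49 ± 0.12. Mrpl22, which lines the exit tunnel for the nascent chain, rose by 0.50 ± 0.13. For each of these the 3 GPI-negative arrays lay above the 3 GPI-positive arrays. Apart from Mrps18a, described with its paralogs, the other 8 genes that rose did so by 0.31 to 0.41. An exact two-sided permutation test of 3 against 3 arrays cannot go below 0.1, which is the value each of these genes gave.

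**Figure D2:**
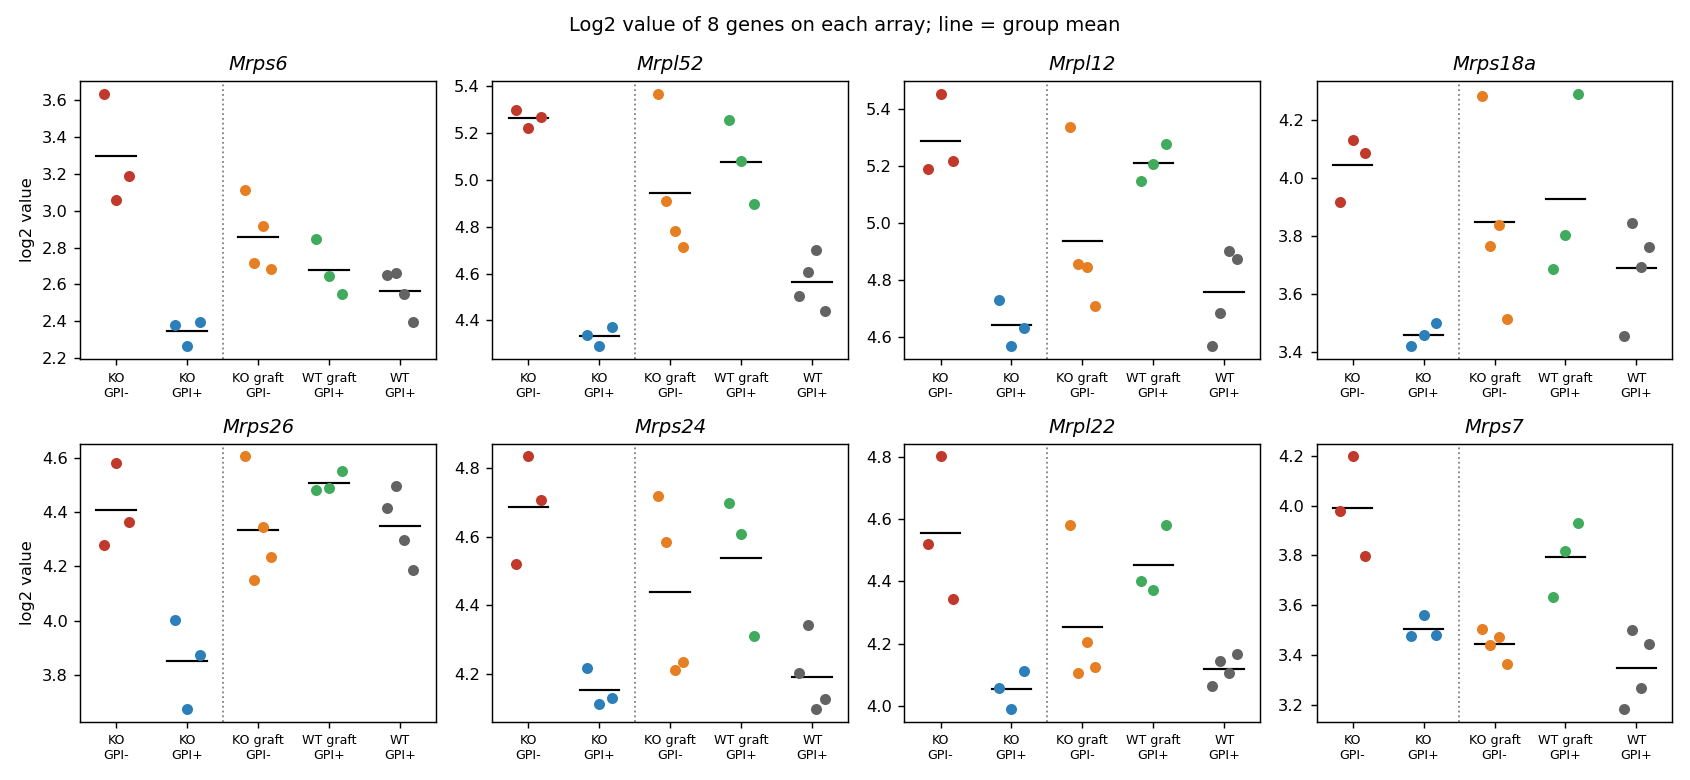
Log2 value of the 8 genes with the largest rises in knock-out GPI-negative cells, on each of the 17 arrays (points) with group means (lines); a dotted line divides batch 1 from batch 2, whose levels were normalized separately. In batch 1 the GPI-negative points lie above the GPI-positive points for all 8 genes, while in batch 2 the knock-out graft and the wild-type graft overlap for every gene but Mrps7.

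The 3 Mrps18 paralogs, which descend from 1 bacterial S18 gene, did not move alike. Mrps18a, whose product sits in the large subunit despite its name, measured 3.92, 4.13 and 4.08 in GPI-negative and 3.42, 3.46 and 3.50 in GPI-positive cells, a rise of 0.58 ± 0.17 (limma adjusted p = 0.0108). Mrps18b differed by 0.15 ± 0.11 (limma adjusted p = 0.335) and Mrps18c by -0.02 ± 0.14 (limma adjusted p = 0.933), and neither passed the test. The differences between the paralogs were not tested against each other. Mrps12, a protein of the decoding centre, differed by 0.13 ± 0.14 (limma adjusted p = 0.534). Mrpl11, a protein of the region where translation factors bind, differed by 0.10 ± 0.14 on its brightest probe set, while a second of its probe sets gave 0.91 ± 0.19 (limma adjusted p = 0.00164), so its probe sets disagree. Other probe sets were fitted separately with their own adjustment, so their adjusted p-values are not on the scale of the gene fit. More genes not called on their brightest probe set passed on another. Such probe sets were higher for Mrpl21 (0.82), Mrpl3 (0.55), Mrps9 (0.50) and Mrps21 (0.41), and lower for Mrpl19 (-0.54) and Mrpl44 (-0.39). The counts of rises and falls thus depend on the probe set rule.

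Both falls were in large-subunit genes. Mrpl33, the counterpart of bacterial L33, measured 5.14, 4.89 and 5.05 in GPI-negative and 5.61, 5.44 and 5.41 in GPI-positive cells (-0.46 ± 0.16, limma adjusted p = 0.0336). Mrpl51, whose probe set was the brightest of the 76, measured 5.63, 5.95 and 5.83 against 6.16, 6.17 and 6.26 (-0.39 ± 0.12, limma adjusted p = 0.0169), and its other probe sets, both dim, gave -0.28 ± 0.15 and 0.069 ± 0.23. Groups did not overlap in 20 genes that were higher and 10 that were lower, beside 22.0% and 21.2% of all genes.

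The 8 largest rises stayed past the threshold when any 1 of the 17 arrays was left out. The count of 18 fell to 11 without knock-out GPI-positive replicate 2, the lowest of the left-out arrays. The 3 GPI-positive arrays of the knock-out were close to each other: the median SD over the 76 genes was 0.06 there and 0.15 in the GPI-negative arrays. Counting those 3 arrays as 1 averaged sample left 2 calls, Mrps6 and Mrpl52. Where other kept probe sets existed for the 18 called genes, 12 of 17 had the same direction and 5 the opposite. The opposite ones were 3 of the 4 other probe sets of Mrps5 (-0.00035, -0.073 and -0.18, beside 0.41 on its brightest), 1 of Mrps10 (-0.11, beside 0.32) and 1 of Mrpl51. Of the 17, only probe sets of Mrps6 (0.69) and Mrpl52 (0.70 and 0.59) passed the threshold themselves. That threshold was applied in a separate fit over all 34945 probe sets with 1 symbol, not in the gene fit. Some with the same direction were small, such as those of Mrpl58 (0.018) and Mrpl39 (0.039). The other probe set of Mrps24 gave 0.25 ± 0.13 (limma adjusted p = 0.215).

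Genes of the wider mitochondrial expression machinery were listed by role, and each list's share of rises is read beside the 14.8% of all genes that rose in this comparison. Of 26 genes for ribosome assembly and mitochondrial rRNA processing, 7 rose (26.9%) and 1 fell in knock-out GPI-negative cells. Dhx30, an RNA helicase needed for ribosome assembly, rose by 0.69 ± 0.11 (limma adjusted p = 6.18e-05) and Trmt10c, a subunit of the mitochondrial RNase P, by 0.60 ± 0.13. Mterf4, which brings an rRNA methyltransferase to the large subunit, fell by 0.46 on the log2 scale. Of 18 genes for mitochondrial DNA transcription, replication and their nuclear regulators, 7 rose (38.9%) and none fell. They were Ppargc1b (0.93 ± 0.16), a coactivator of mitochondrial biogenesis, Myc (0.79 ± 0.15), the mitochondrial RNA polymerase Polrmt (0.60 ± 0.13), Pprc1 (0.56 ± 0.13), Tfam (0.44 ± 0.10), Polg2 (0.39 ± 0.12) and the helicase gene Twnk (0.34 ± 0.11). Of 16 mitochondrial tRNA synthetase genes, 4 rose (25%), led by Ears2 (0.70 ± 0.23) and Hars2 (0.59 ± 0.13). Of 14 translation factor genes, Lrpprc (0.43 ± 0.16) and Mtfmt (0.39 ± 0.12) rose, which at 14.3% is near the share over all genes. Of 5 measured genes for proteins that are part of the mitochondrial ribosome under other names or bind it, Ptcd3, a small-subunit protein, and Oxa1l, an inner-membrane insertase that binds the ribosome, rose by 0.37 ± 0.13 and 0.35 ± 0.13.

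Genes of cytosolic ribosomes and of the respiratory chain were set beside them. Of 48 cytosolic ribosomal protein genes, 17 rose (35.4%) and none fell in knock-out GPI-negative cells, with a median difference of 0.28. Of 74 respiratory chain subunit genes encoded in the nucleus, 12 rose (16.2%) and 5 fell, with a median of 0.03. Cox6a2, an isoform of a cytochrome oxidase subunit known from heart and muscle, differed most of that list (1.88 ± 0.19). Of 25 cell cycle genes 11 fell and none rose, beside 14.8% of all genes called lower, with a median of -0.37. Mitochondrial and cytosolic ribosomal protein genes had positive medians in the fraction whose cell cycle genes had a negative one.

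**Figure D3:**
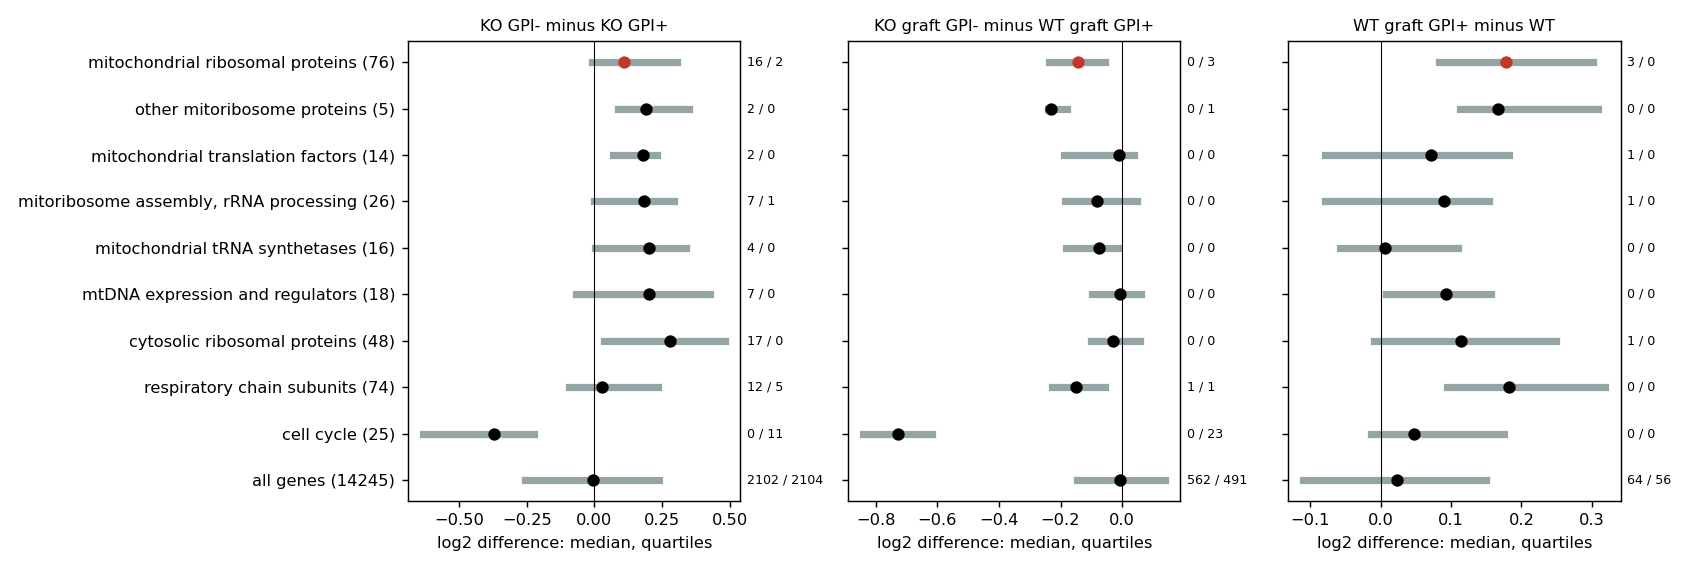
Median (points) and quartiles (bars) of the log2 difference over each gene list, with the number of genes listed in brackets and the numbers that rose and fell at the right of each panel, in the knock-out, recipient and wild-type graft comparisons. The 76 genes (red) have medians of 0.11, -0.14 and 0.18, and the respiratory chain list has 0.03, -0.15 and 0.18.

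The promoters of the 8 genes with the largest rises are shown as the regulatory sequence next to the genes the comparison turns on. Sequences are from RefSeq (GRCm38.p6) and cover the 120 bases before the annotated start. Capitals mark a match to CCGGAAG on either strand, the core bound by ETS factors such as GABP, a known regulator of nuclear genes for mitochondrial proteins, and in Mrpl22 also a match to GCGCATGCG, the core bound by NRF1, another such regulator. The first 4 hold a CCGGAAG match, and the other 4 hold neither in this window.
Mrpl52 (chr14:54426789-54426908, plus strand): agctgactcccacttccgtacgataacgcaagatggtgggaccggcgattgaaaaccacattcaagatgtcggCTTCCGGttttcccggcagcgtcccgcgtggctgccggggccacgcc
Mrps18a (chr17:46110884-46111003, plus strand): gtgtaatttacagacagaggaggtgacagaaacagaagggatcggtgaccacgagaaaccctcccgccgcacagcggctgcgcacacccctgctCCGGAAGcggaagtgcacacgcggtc
Mrps26 (chr2:130563637-130563756, plus strand): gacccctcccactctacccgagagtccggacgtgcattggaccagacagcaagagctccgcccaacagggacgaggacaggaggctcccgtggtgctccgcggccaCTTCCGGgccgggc
Mrpl22 (chr11:58171544-58171663, plus strand): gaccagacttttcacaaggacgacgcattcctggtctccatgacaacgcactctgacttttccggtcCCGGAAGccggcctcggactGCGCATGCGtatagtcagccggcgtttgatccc
Mrps6 (chr16:92058216-92058335, plus strand): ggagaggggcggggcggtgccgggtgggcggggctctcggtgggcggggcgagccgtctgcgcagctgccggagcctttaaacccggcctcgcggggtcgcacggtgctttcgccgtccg
Mrpl12 (chr11:120484517-120484636, plus strand): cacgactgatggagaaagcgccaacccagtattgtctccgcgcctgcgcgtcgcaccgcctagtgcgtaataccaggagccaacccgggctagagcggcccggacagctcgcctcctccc
Mrps24 (chr11:5707702-5707821, minus strand): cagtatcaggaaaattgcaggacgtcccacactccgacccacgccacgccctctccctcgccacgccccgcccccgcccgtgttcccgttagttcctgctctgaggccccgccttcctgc
Mrps7 (chr11:115604020-115604139, plus strand): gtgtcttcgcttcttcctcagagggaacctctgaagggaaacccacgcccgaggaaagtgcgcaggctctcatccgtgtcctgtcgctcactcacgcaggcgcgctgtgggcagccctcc

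RefSeq promoter windows of 300 bases (250 before and 50 after the start) were found for 67 of the 76 genes, 73 windows in all. CCGGAAG or its reverse complement lay in 25 of the 73 (34.2%), against 11.6% of 21262 windows of protein-coding genes and 8.86% of all 32851 windows. All motifs were searched on both strands, and matches of different motifs may overlap. Genes with several annotated starts count once per window. The 7 windows with the E-box CACGTG thus belong to 5 of the 67 genes, with Mrpl2 counted repeatedly. The YY1 motif AAGATGGCG was in 8 windows (11%) against 1.83% of coding windows, and the NRF1 motif GCGCATGCG in 7 (9.59%) against 2.35%. The ZNF143 motif ACTACAANT was in 4 (5.48%) against 1.96%. The shares were 9.59% against 7.84% for the E-box CACGTG, 39.7% against 38.2% for CCAAT, 53.4% against 46.2% for the GC box GGGCGG, 2.74% against 2.23% for the cyclic AMP element TGACGTCA, and 6.85% against 12.6% for TATAAA. Of 16 windows belonging to genes that rose in knock-out GPI-negative cells, 5 held CCGGAAG. A match is a description of the letters, and binding was not measured.

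In 25 of the 73 windows (34.2%) the start of another protein-coding gene lay within 1000 bases upstream on the opposite strand, against 7.97% of coding windows. This concerned 23 genes, among them Mrpl46 and Mrps11, which face each other. In that pair, knock-out differences were 0.08 and 0.14 and recipient differences -0.26 and -0.30. Mrpl51 faces Ncapd2, a condensin subunit gene, and both were lower in knock-out GPI-negative cells (-0.39 and -0.44, limma adjusted p = 0.0169 and 0.0259). Mrps7 faces Gga3, and both were higher (0.49 and 0.42, limma adjusted p = 0.00367 and 0.0215). Mrpl47 faces Ndufb5, a respiratory chain gene, which rose by 0.51 in the knock-out while Mrpl47 differed by 0.17 without passing the test. Mrpl41 differed by 0.47 ± 0.20 without passing the test (limma adjusted p = 0.0872), while its neighbour Pnpla7 fell by 0.42 on the log2 scale. The neighbours were picked for description after their values were seen.

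Between the transplanted groups the sign of the median was the other way. In knock-out-graft GPI-negative cells against wild-type-graft GPI-positive cells, no gene of the 76 rose and 3 fell. The 3 are 3.95% of the genes, beside 7.39% of all genes called and 3.45% called lower. The median difference was -0.14, beside -0.01 over all genes, and 66 of the 76 differences were below 0. The medians were -0.16 for Mrpl and -0.13 for Mrps genes.

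Mrpl18, which in mammals also helps to carry 5S ribosomal RNA into mitochondria, fell most. Its log2 values were 5.41, 4.80, 5.42 and 5.01 in the knock-out graft and 5.58, 5.61 and 5.80 in the wild-type graft. The groups did not overlap, with a difference of -0.50 ± 0.13 (limma adjusted p = 0.0211, exact two-sided permutation p = 0.08571). Mrpl47 measured 3.75, 3.03, 3.22 and 3.24 against 3.69, 3.88 and 3.69 (-0.44 ± 0.13, limma adjusted p = 0.0387). Mrpl11 measured 4.14, 3.65, 3.71 and 3.94 against 4.19, 4.07 and 4.57 (-0.42 ± 0.13, limma adjusted p = 0.0485). For Mrpl47 and Mrpl11 the groups overlap through replicate 1 of the knock-out graft.

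Mrps18c (-0.43 ± 0.13, limma adjusted p = 0.0509) and Mrps7 (-0.35 ± 0.11, limma adjusted p = 0.0627) just missed the threshold, although neither gene's groups overlapped. Mrps18a differed by -0.08 ± 0.16, Mrps18b by -0.05 ± 0.10, Mrpl12 by -0.27 ± 0.13 and Mrps12 by -0.11 ± 0.13, and none of these passed the test. Groups did not overlap in 5 genes that were lower and in none that were higher, beside 7.52% and 8.0% of all genes. The count of 3 rose to 10 without replicate 1 of the knock-out graft. It rose to 5 without knock-out GPI-negative replicate 2 and fell to 1 without any of the 3 knock-out GPI-positive arrays, which enter through the shared estimate of the spread. It was 0 without knock-out-graft replicate 2 or 4 or wild-type-graft replicate 3, and 1 without knock-out-graft replicate 3 or wild-type-graft replicate 2. The median stayed between -0.21 and -0.11.

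Few other genes of the machinery passed the test between the recipients. Chchd1, a small-subunit protein under another name, fell by 0.52 (SE 0.13, limma adjusted p = 0.0135), and it was the single call among the 5 genes of its list. No gene of the translation factor, assembly, synthetase or mitochondrial DNA lists passed the limma test, where 1, 2, 1 and 0 had an unadjusted p under 0.05. Of 48 cytosolic ribosomal protein genes none passed (2 with an unadjusted p under 0.05) and the median was -0.03. Of 74 respiratory chain genes, Cox6a2 rose (1.55 ± 0.18) and Ndufs1 fell (-0.32 ± 0.10), with a median of -0.15 and 64 of 74 differences below 0. Cell cycle genes were lower in 23 of 25 cases, with a median of -0.73. Of 10 erythroid markers 6 fell, beside 3.45% of all genes called lower. Summed erythroid markers ranged from 200.3 to 685.9 in the knock-out graft and from 582.8 to 819.7 in the wild-type graft. The part of these markers in the difference was not tested.

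Against untransplanted wild type, the 2 grafts differed in how the 76 genes lay. These comparisons share the wild-type arrays, and each graft also enters the recipient comparison, so their values are given side by side. The wild-type graft exceeded wild type in 66 of the 76 genes, with a median difference of 0.18 beside 0.02 over all genes. The knock-out graft exceeded it in 44, with a median of 0.03 beside 0.02.

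In the wild-type graft, 3 of 76 genes rose (3.95%) and none fell, beside 0.842% of all genes called, 0.449% higher and 0.393% lower. Mrpl18 measured 5.58, 5.61 and 5.80 against 4.83, 5.14, 5.14 and 5.14 in wild type (0.60 ± 0.13, limma adjusted p = 0.0338). Mrps28, a small-subunit protein, measured 4.60, 4.54 and 4.53 against 3.83, 3.93, 4.06 and 4.12 (0.57 ± 0.12, limma adjusted p = 0.0303). Mrps21, the counterpart of bacterial S21, measured 4.88, 4.75 and 4.87 against 4.55, 4.30, 4.41 and 4.42 (0.41 ± 0.10, limma adjusted p = 0.0404). In all 3 the groups did not overlap, and each gave the smallest exact two-sided permutation p that 3 against 4 arrays allow, 0.02857. Another probe set of Mrps21 pointed the other way (-0.36).

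Across the 76 genes, 28 had every wild-type-graft array above every wild-type array and 1 the reverse, beside 8.04% and 5.86% of all genes. Mrpl12 (0.45 ± 0.13, limma adjusted p = 0.0976), Mrpl52 (0.52 ± 0.13, limma adjusted p = 0.0617) and Mrps7 (0.44 ± 0.11, limma adjusted p = 0.0619) were among the 28 without passing the test. Mrps18c (0.37 ± 0.13) and Mrpl11 (0.30 ± 0.13) were too, and neither passed. The 3 calls were lost without any 1 of wild-type-graft replicates 1, 2 and 3 or wild-type replicates 1 and 2, and 1 was left without wild-type replicate 3 or 4 or any knock-out GPI-positive array. The count was 5 without knock-out GPI-negative replicate 2 or knock-out-graft replicate 1. The median stayed between 0.16 and 0.21. Respiratory chain genes had a median of 0.18 and 66 of 74 differences above 0, with none called (29 with an unadjusted p under 0.05, limma). Slirp (0.60 ± 0.11), which stabilises mitochondrial mRNAs, and Mpv17l2 (0.54 ± 0.11), a ribosome assembly protein, rose. Cell cycle genes had a median of 0.05 and none was called (4 with an unadjusted p under 0.05, limma).

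In the knock-out graft, 2 of 76 genes rose and 1 fell against wild type (3.95%, beside 12.4% of all genes, 6.84% called higher and 5.55% lower). Groups did not overlap in 5 genes that were higher and in none that were lower, beside 9.32% and 7.04% of all genes. Mrpl52 measured 5.37, 4.91, 4.78 and 4.71 against 4.51, 4.61, 4.70 and 4.44, and the groups just cleared each other (0.38 ± 0.12, limma adjusted p = 0.0398). Mrpl4, whose product lines the exit tunnel, measured 4.32, 4.37, 4.37 and 4.49 against 4.08, 4.03, 4.23 and 3.98 (0.31 ± 0.09, limma adjusted p = 0.0238). Mrpl51 measured 6.40, 6.06, 6.00 and 6.16 against 6.67, 6.53, 6.52 and 6.35, overlapping through 1 array, with a difference of -0.36 ± 0.10 (limma adjusted p = 0.0238). Mrpl51 thus passed the test on its brightest probe set, with a negative sign, in both comparisons of GPI-negative with GPI-positive cells in which the GPI-positive mice had not been transplanted. Its recipient difference was -0.34 ± 0.11 (limma adjusted p = 0.0759). The count of 3 was 0 without wild-type replicate 2, 1 without wild-type replicate 4 or knock-out-graft replicate 2 or 4, and 5 without knock-out GPI-negative replicate 2 or knock-out-graft replicate 3. Without knock-out-graft replicate 1 the median was -0.01. In the assembly list Noa1 (0.48 ± 0.11), Mpv17l2 (0.36 ± 0.10) and Rbfa (0.34 ± 0.10) rose, and Ppargc1b rose by 0.74 ± 0.14.

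The knock-out and recipient differences, which share no array, were then tested against each other by an interaction term. Of 76 genes, 14 passed with a positive interaction, the knock-out difference minus the recipient difference, and none with a negative one. These are 18.4%, beside 19.0% of all genes called, 9.04% positive and 9.96% negative. A positive sign does not mean a larger change in the knock-out. Mrpl18 differed by 0.11 there and by -0.50 in the recipients, and Mrpl47 by 0.17 and -0.44. The median interaction was 0.26, beside 0.02 over all genes. In the signs alone, 49 genes were higher in the knock-out and lower in the recipients, 4 the reverse, 6 higher in both and 17 lower in both. Such counts by pair of signs were not made over all genes. No gene passed the test in both comparisons. Across the 76 genes the differences correlated with Pearson r = 0.11 (Spearman 0.09), beside 0.31 (Spearman 0.10) across all genes, as a description over genes that share arrays and are not independent.

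**Figure D4:**
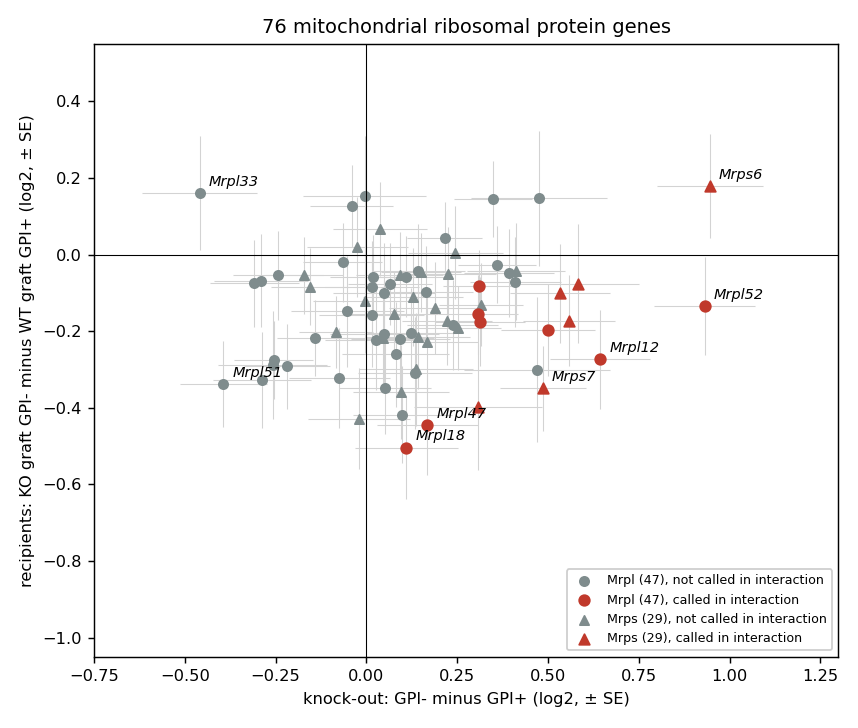
Log2 difference of each of the 76 genes in the knock-out (horizontal axis) and in the recipients (vertical axis), with the fit's SE as bars; circles are Mrpl and triangles Mrps genes, and red marks an interaction past an adjusted p of 0.05. The largest group of points, 49 genes, lies at the lower right, higher in the knock-out and lower in the recipients.

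On the brightest probe set of each gene, Mrpl52 had the largest interaction, 1.07 ± 0.19 (limma adjusted p = 0.000518). It came from 0.93 in the knock-out and -0.13 in the recipients. Mrpl12 followed with 0.92 ± 0.19 (0.64 and -0.27, limma adjusted p = 0.00165) and Mrps7 with 0.84 ± 0.16 (0.49 and -0.35, limma adjusted p = 0.00114). Mrps6 (0.77), Mrps26 (0.73) and Mrpl22 (0.70) also stayed past the threshold with any 1 array left out, as did these 3. The remaining calls were Mrps36 (0.71), later assigned to the alpha-ketoglutarate dehydrogenase complex rather than the ribosome, Mrps18a (0.66), Mrps24 (0.63), Mrpl18 (0.61), Mrpl47 (0.61), Mrpl38 (0.49), Mrpl16 (0.46) and Mrpl23 (0.39). Each of these was lost when at least 1 array was left out. The count was 28 without knock-out-graft replicate 1 and 6 without knock-out GPI-positive replicate 2. It was 7 without knock-out GPI-negative replicate 2, 8 without knock-out GPI-positive replicate 1 or 3 or wild-type-graft replicate 2 or 3, and 9 without knock-out-graft replicate 2 or 4. Mrpl11, not called on its brightest probe set, gave 1.33 ± 0.27 on another (limma adjusted p = 0.00201) and 0.45 and 0.19 on the rest. Other probe sets of Mrpl3 (0.83), Mrps9 (0.60) and Mrpl41 (0.58) also passed, though their brightest did not. Further ones of Mrpl3 (0.013 and -0.19) and Mrps9 (0.30 and 0.082) did not pass. The knock-out and recipient differences also come from different mice, untransplanted and transplanted, from different batches and from RNA inputs of 500 ng and 1 microgram. Their GPI-positive references differ as well: cells of knock-out mice in batch 1 and of wild-type marrow in batch 2. Within batch 2 the labels give aerolysin for the knock-out graft only. The interaction cannot tell these apart.

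Single arrays stood out in both GPI-negative groups. The median log2 value of the 76 genes was 4.11, 4.35 and 4.06 in knock-out GPI-negative arrays and 4.01, 3.99 and 4.07 in GPI-positive ones. Replicate 2 of the GPI-negative arrays was the highest of the 6, and replicate 3 lay below the highest GPI-positive array. The medians were 4.42, 4.13, 4.14 and 4.15 in the knock-out graft, 4.32, 4.34 and 4.47 in the wild-type graft and 4.07, 4.14, 4.10 and 4.12 in wild type. Every wild-type-graft array exceeded every wild-type array, and replicate 1 of the knock-out graft reached the wild-type-graft range.

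The 2 high arrays were also high in cell cycle genes. The cell cycle median was 5.56 in knock-out GPI-negative replicate 2 against 5.27 and 5.29 in the other two, and 5.67 in knock-out-graft replicate 1 against 5.25, 5.26 and 5.33. Some other measures lay at the end of their group's range on the same arrays. In knock-out GPI-negative replicate 2, summed erythroid markers were 1785 against 781.5 and 1042, the mean of the hybridisation controls was 9.16 against 8.70 and 8.55, and their slope was 0.870 against 0.994 and 1.004. In knock-out-graft replicate 1, summed T and NK cell markers were 518.7 against 399.0, 215.2 and 258.4. Its sums of erythroid (614.8) and B cell (958.6) markers lay within the range of the other arrays of the group. The part of these measures in the member medians was not tested. Without knock-out GPI-negative replicate 2 the knock-out median difference was 0.05, with 13 rises and 3 falls. Without knock-out-graft replicate 1 the recipient median was -0.21.

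**Figure D5:**
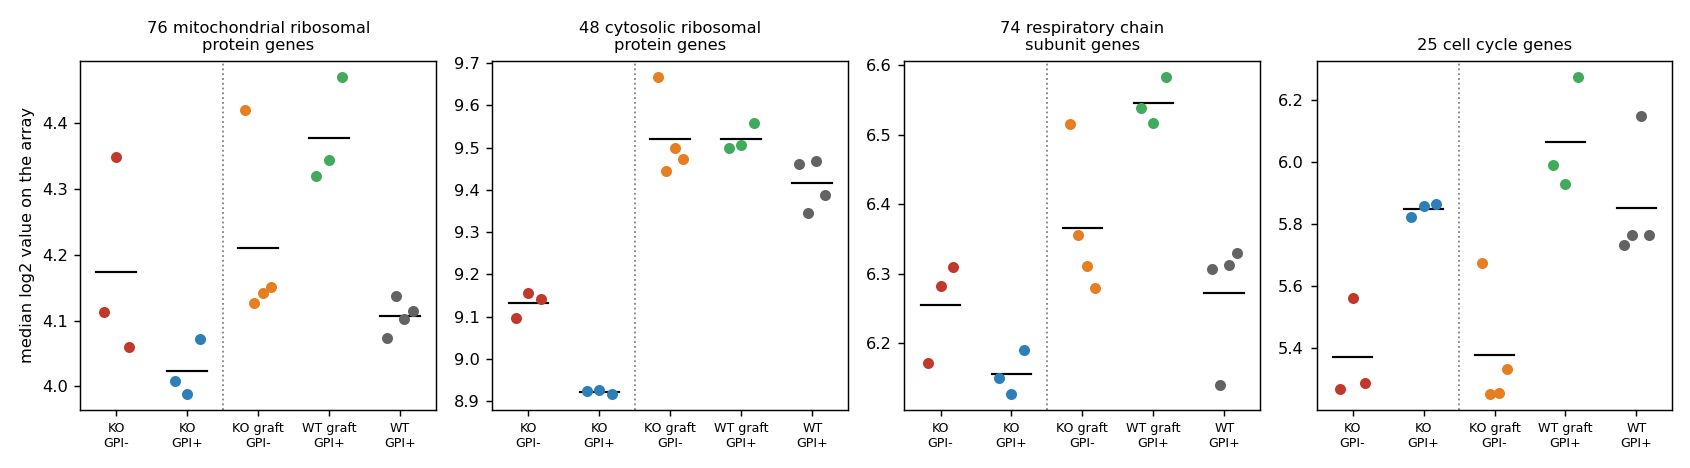
Median log2 value over the 76 genes, 48 cytosolic ribosomal protein genes, 74 respiratory chain subunit genes and 25 cell cycle genes on each array (points) with the group mean of these medians (lines); the dotted line divides the batches. Replicate 1 of the knock-out graft is the highest of its group in all 4 panels, at 4.42, 9.67, 6.52 and 5.67.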

How the data were processed

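The authors deposited 1 value table of log10-like values for 45101 probe sets on 17 arrays; its sorted values were identical within a batch (largest difference 0), so quantile normalization was done per batch. The base was read from the values: across the spiked-in controls the deposited value rose by 1.06 ± 0.12 per log10 of concentration in batch 1 (SD, n = 6, over 2 groups whose slopes differ) and 1.21 ± 0.05 in batch 2 (n = 11). The sources used here give neither the background correction nor the probe summary; GCOS 12 is named per the submitters' processing notes. RNA input was taken to follow the batches of the titles, which the labels do not state outright.

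Values were converted to log2 and each array was shifted to 1 common median. The 64 control probe sets were left out, and probe sets at or above the 40th percentile on at least 3 arrays were kept (32426). The annotation gave 34945 probe sets 1 symbol, 932 several and 9160 none here; 4 with several symbols, a mitochondrial ribosomal protein gene among them, were not used. The brightest kept probe set stood for each gene. One fit with limma 3.58.1 (R 4.3.3; lmFit, eBayes with intensity trend) over 5 groups and 12 residual degrees of freedom gave differences and SEs, with Benjamini-Hochberg adjustment over 14245 genes and a threshold of 0.05. Probe sets other than the brightest were fitted apart, over all 34945 probe sets with 1 symbol and without the filter. Their adjusted p-values come from that fit's own adjustment and are on another scale. The main fit was tested on simulated data. For single genes an exact permutation test (two-sided) of the difference in means was added. The number of arrays limits the precision. Levels are not compared between genes. Genes named are up to 8 rises and 8 falls per comparison, interaction calls, Mrps18a, Mrps18b, Mrps18c, Mrpl12, Mrps12 and Mrpl11, and the 2 largest changes in each direction of other lists; other names were chosen after their values were seen. The members and lists were chosen with earlier results of these data known, and the NRF1, YY1 and ZNF143 motifs were shortened to 9 letters after longer forms had been counted. Alternatives were another normalization, filter, probe set rule or prior, batch-only fits, a replicate block, averaged arrays and leaving out each array.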

Additional observations from a re-analysis of the deposited data

Results flagged for a closer look

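Of 48 sets of 4 arrays examined (the member median and the named genes in the knock-out graft and in wild type), 2 held an array far from the others; chance gives about 1 in 20. The median over the 76 genes was 4.42 in replicate 1 of the knock-out graft, with the other arrays at 4.13 to 4.15. Mrpl18 was 4.83 in replicate 1 of wild type, with the other arrays at 5.14. The interaction test called 14 of the 76 genes, beside 19.0% of all genes, so as a share the group did not stand out. The 14 were Mrpl52 (1.07), Mrpl12 (0.92), Mrps7 (0.84), Mrps6 (0.77), Mrps26 (0.73), Mrps36 (0.71), Mrpl22 (0.70), Mrps18a (0.66), Mrps24 (0.63), Mrpl18 (0.61), Mrpl47 (0.61), Mrpl38 (0.49), Mrpl16 (0.46) and Mrpl23 (0.39), as log2 knock-out difference minus recipient difference.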

How the results depend on the processing

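Median differences over the 76 genes kept their sign and moved by less than the spread between arrays under the alternatives run, except that the knock-out graft against wild type was -0.01 without knock-out-graft replicate 1. Leaving out each array, they ranged from 0.05 to 0.14 in the knock-out, -0.21 to -0.11 in the recipients, -0.01 to 0.06 and 0.16 to 0.21 for the knock-out and wild-type grafts against wild type, and 0.20 to 0.36 in the interaction. The spread between arrays, a pooled SD of the array medians, was 0.113 in the knock-out, 0.115 in the recipients and 0.101 for the knock-out graft. It was 0.061 for the wild-type graft and 0.114 in the interaction. In the knock-out it is as large as the median difference itself (0.110), so a move below it does not show stability. The counts of called genes changed too, and the cause was not tested. The share of all genes called also moved with the setting. In the knock-out it was 29.5% in the main fit and 40.5% under a 60th percentile filter. The member counts under alternatives, here and above, are given without such shares and do not separate the 76 genes from the whole array. Leaving out each array gave 11 to 19 calls in the knock-out (18 with every array), 0 to 10 in the recipients (3), 0 to 5 for the knock-out graft (3), 0 to 5 for the wild-type graft (3) and 6 to 28 in the interaction (14). With the knock-out GPI-positive arrays averaged into 1 sample, which leaves fewer degrees of freedom, the counts were 2, 1, 1, 0 and 3 in that order. A 60th percentile filter, under which fewer genes are tested, gave 5 calls in the recipients, 6 for the knock-out graft and 5 for the wild-type graft, and 21 in the interaction. Cyclic loess gave 21 in the interaction. Without the intensity trend the counts were 1 in the recipients and 0 for the wild-type graft, and the batch-only fit gave the same 1 and 0. The interaction was not run with arrays of 1 batch, since it spans both. Replicate numbers are shared between groups. With group means removed, same-numbered arrays correlated at most at 0.10 and some below 0. Such values can also arise between fractions of the same animal, so pairing by animal is not excluded. The main fit treats the arrays as unpaired. The replicate block gave 15 calls in the knock-out, 0 in the recipients, 4 for the knock-out graft, 0 for the wild-type graft and 8 in the interaction. Other probe sets turned the sign for Mrpl51 (0.069 in the knock-out, 0.041 in the knock-out graft against wild type), Mrpl47 (0.24 in the recipients, -0.21 in the interaction, on a probe set below the filter), Mrps21 (-0.36 in the wild-type graft) and Mrpl38 (-0.12 and -0.0050 in the interaction). They also did so in the knock-out for Mrps5 (-0.00035, -0.073 and -0.18) and Mrps10 (-0.11).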
